A study of Mus musculus with 2 samples.

Results

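Killer cell lectin-like receptors are surface proteins of natural killer cells and of some T cells, encoded by the gene groups Klra to Klrk. All genes with a symbol of this pattern on a probe set annotated with exactly 1 gene were taken, which gave 23 of the 19937 named genes on the array. Each of the 23 had 1 probe set, so no choice between probe sets was needed. They comprise 6 Ly49 genes (Klra), 6 genes of the NKR-P1 group (Klrb1, a pseudogene included), 4 of the CD94 and NKG2 group (Klrd1 and Klrc), Klrk1, 2 KLRG genes and 4 genes of the groups Klre, Klri and Klrh. The symbol pattern chose the genes and uses no measured value, though it was set with earlier results of these data known.

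TR1 cells, regulatory T cells that make IL-10, were profiled in 2 samples from mouse small intestine, with 1 Affymetrix array each. The wildtype sample has an intact IL-10 receptor alpha chain (IL10RA), and the impaired sample comes from CD4-DNIL-10R transgenic mice, by its name a dominant-negative receptor driven by Cd4 regulatory sequence. Mice of both groups received 15 μg of anti-CD3 (clone 2C11) by intraperitoneal injection, 2 doses given every other day, and were killed at 4 or 48 hours after the second. Which time applies to which sample, the age and strain, the number of mice pooled and the sort are not stated in the labels. The values are log2 RMA expression, a scale on which 1 unit is a 2-fold step in brightness, and differences are impaired minus wildtype. Since each genotype had only 1 array, replicate error is unknown and nothing was tested; every difference below is between these 2 arrays.

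These receptors belong to the C-type lectin-like family and lie mostly in one block of the genome, the natural killer gene complex. Inhibitory members carry a cytoplasmic tyrosine motif that recruits phosphatases such as SHP-1, and activating members pair with adaptors such as DAP12, DAP10 or the Fc receptor gamma chain. Ly49 receptors and the CD94-NKG2 pairs read MHC class I molecules, NKG2D reads stress-induced ligands, and NKR-P1 receptors read lectins of the Clec2 group encoded beside them. On T cells, several of these receptors appear after activation, above all on CD8 T cells and intraepithelial lymphocytes.

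The receptor genes lie close together, and some have near-identical promoters. RefSeq promoter windows (250 bases before to 50 after the start, build GRCm38.p6) were found for 19 of the 23 genes. Shown first are the 3 NKG2 genes that share CD94 as partner, with matches to the RUNX core TGTGGT (read on both strands) in capitals:
Klrc1, chr6:129678924-129679223, minus strand: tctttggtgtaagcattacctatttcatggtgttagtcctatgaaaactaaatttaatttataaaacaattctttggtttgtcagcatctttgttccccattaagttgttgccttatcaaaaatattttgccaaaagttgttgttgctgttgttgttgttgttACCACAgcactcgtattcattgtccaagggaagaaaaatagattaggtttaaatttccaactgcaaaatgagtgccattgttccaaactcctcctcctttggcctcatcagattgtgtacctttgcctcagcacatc
Klrc2, chr6:129660547-129660846, minus strand: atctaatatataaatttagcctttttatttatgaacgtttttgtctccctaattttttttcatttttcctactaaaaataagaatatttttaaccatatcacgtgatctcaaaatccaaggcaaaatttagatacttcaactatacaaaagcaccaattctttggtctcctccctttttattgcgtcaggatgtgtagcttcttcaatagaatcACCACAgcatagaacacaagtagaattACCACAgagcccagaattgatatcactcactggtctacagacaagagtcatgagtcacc
Klrc3, chr6:129643239-129643538, minus strand: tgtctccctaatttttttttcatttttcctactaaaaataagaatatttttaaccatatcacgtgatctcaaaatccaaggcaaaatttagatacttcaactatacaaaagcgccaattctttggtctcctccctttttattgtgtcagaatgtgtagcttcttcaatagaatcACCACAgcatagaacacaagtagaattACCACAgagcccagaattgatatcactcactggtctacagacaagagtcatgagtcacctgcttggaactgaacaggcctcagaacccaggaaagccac
The Klrc2 and Klrc3 windows were 95.8% identical over an ungapped overlap of 260 bases, and the Klrc1 window matched them at 36.6% and 34.8%. The RUNX core occurred 2 times in each of Klrc2 and Klrc3 and 1 time in Klrc1. It was present in 7 of the 19 member windows (Klrb1a, Klrb1c, Klre1, Klrk1 and the 3 Klrc genes), and in 16.8% of all 32851 windows of this length. RUNX factors are known regulators of cytotoxic T cell and natural killer cell genes.

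Klrb1f is shown because it was one of the few members well above the median probe set, with a match to the palindromic STAT motif TTCNNNGAA in capitals:
Klrb1f, chr6:129045651-129045950, plus strand: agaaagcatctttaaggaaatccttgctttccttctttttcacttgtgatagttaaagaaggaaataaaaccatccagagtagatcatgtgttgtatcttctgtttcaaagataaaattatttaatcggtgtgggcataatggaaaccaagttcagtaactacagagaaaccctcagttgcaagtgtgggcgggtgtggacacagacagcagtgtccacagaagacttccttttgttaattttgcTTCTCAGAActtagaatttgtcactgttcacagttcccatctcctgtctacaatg
STAT3 is the factor that the IL-10 receptor activates. This motif was present in 2 of the 19 member windows (Klrb1f and Klra2) and in 8.3% of all windows. The T-box core GTGTGA, on either strand, was present in 2 (Klrg2 and Klre1), against 14.5% of all windows. No pair of these motifs overlapped in the windows printed. A match describes letters and not a bound site.

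The Ly49 genes Klra5 and Klra6 are shown because their windows were 90.8% identical over 271 bases while their differences between the samples were -0.05 and -0.91. Capitals mark the 25 mismatched bases of that overlap:
Klra5, chr6:129913175-129913474, minus strand: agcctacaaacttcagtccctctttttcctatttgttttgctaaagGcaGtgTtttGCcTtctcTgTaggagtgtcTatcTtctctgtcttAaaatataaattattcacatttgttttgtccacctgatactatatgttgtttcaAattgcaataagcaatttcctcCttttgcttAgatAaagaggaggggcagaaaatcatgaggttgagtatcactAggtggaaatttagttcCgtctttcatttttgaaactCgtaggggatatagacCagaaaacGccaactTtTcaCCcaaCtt
Klra6, chr6:130026905-130027204, minus strand: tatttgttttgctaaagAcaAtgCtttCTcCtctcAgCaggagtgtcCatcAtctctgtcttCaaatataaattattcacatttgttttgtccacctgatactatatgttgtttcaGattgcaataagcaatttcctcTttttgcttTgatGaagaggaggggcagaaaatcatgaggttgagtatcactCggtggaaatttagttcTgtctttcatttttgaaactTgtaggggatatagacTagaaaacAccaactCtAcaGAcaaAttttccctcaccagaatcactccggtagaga
The Klra3 window was 93.0% identical to that of Klra6 over 200 bases, the shortest overlap allowed, and 89.96% to that of Klra5 over 229. Over the 15 pairs of Ly49 windows identity ranged from 37.8% to 93.0%, with a median of 47.1%.

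Most of the family was dim in both samples. Only 4 of the 23 genes (Klrd1, Klrb1f, Klrc1 and Klrb1b) had a mean above the median probe set of the arrays, 6.91, against 53.9% of all 19937 genes. The other 19 lay below it in both samples. Just above the line stood Klrb1b, with a mean of 7.09, and just below it Klrb1 (6.79) and Klrb1c (6.73). No detection call was at hand, so a value under the line is a dim probe set and not a proof that the gene is silent; levels of different genes come from different probes and are not ranked here.

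**Figure D1:**
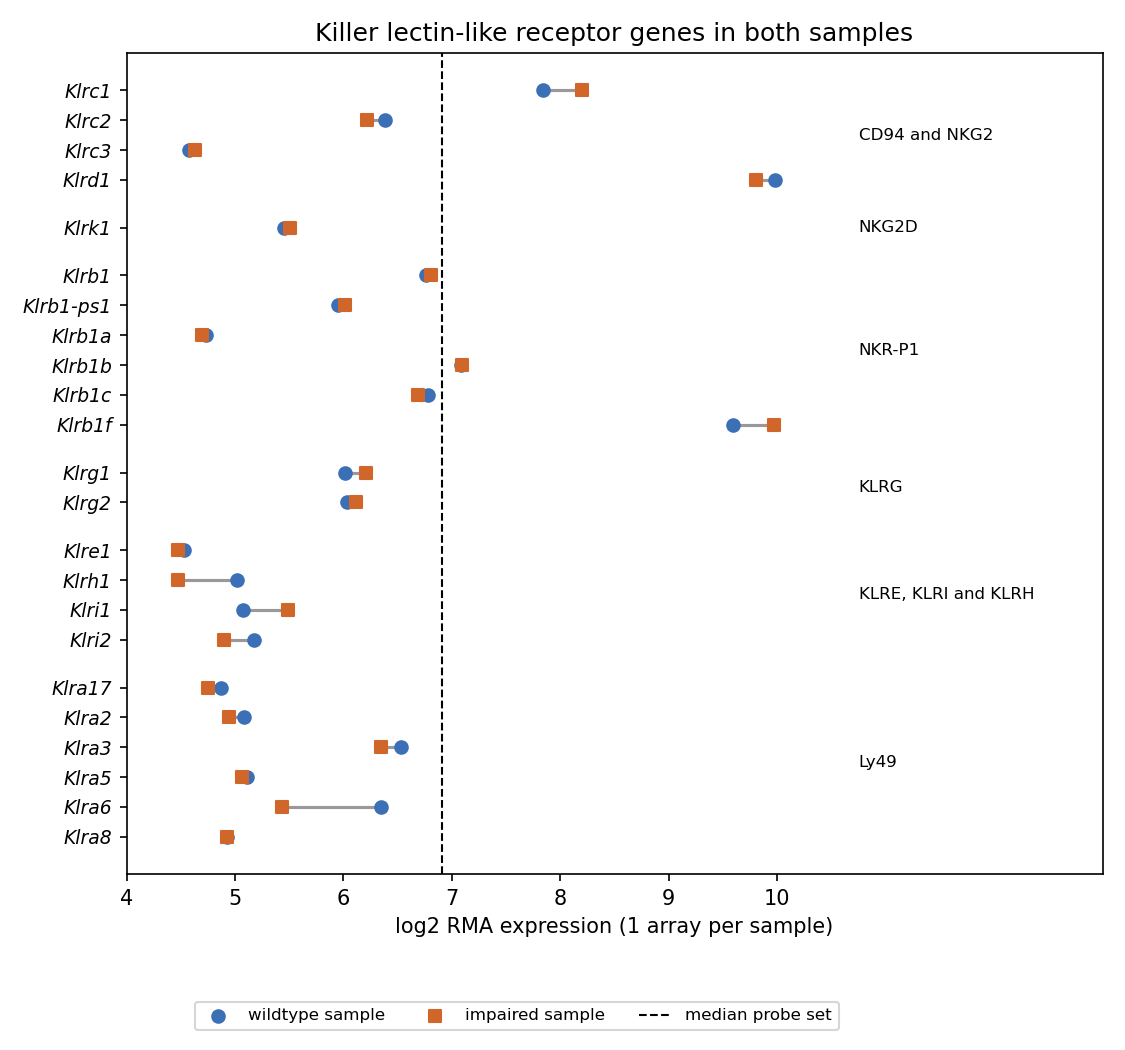
Log2 RMA expression (x axis) of the 23 receptor genes (y axis, grouped by receptor type) in the wildtype sample (circles) and the impaired sample (squares), 1 array each, with the median probe set as a dashed line. Klrd1, Klrb1f, Klrc1 and Klrb1b lie to the right of the line, and the longest connecting bar is that of Klra6.

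Between the samples the family moved little and in both directions. Of the 23 genes 10 were brighter and 13 dimmer in the impaired sample, against 47.6% of all genes dimmer. The median difference was -0.04, beside 0.01 over all genes. None was at least 1.5-fold brighter (3.58% of all genes were), and only Klra6 was at least 1.5-fold dimmer (1.8% of all genes). Differences of 11 members were smaller than 0.1, as were those of 6999 of all 19937 genes. Within 1.5-fold lay 22 of the 23 members and 18865 of all genes, so small differences were common across the arrays. For the 4 members above the median probe set the median difference was 0.19, and for the 19 below it -0.05; over all genes on those sides it was 0.00 and 0.02.

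**Figure D2:**
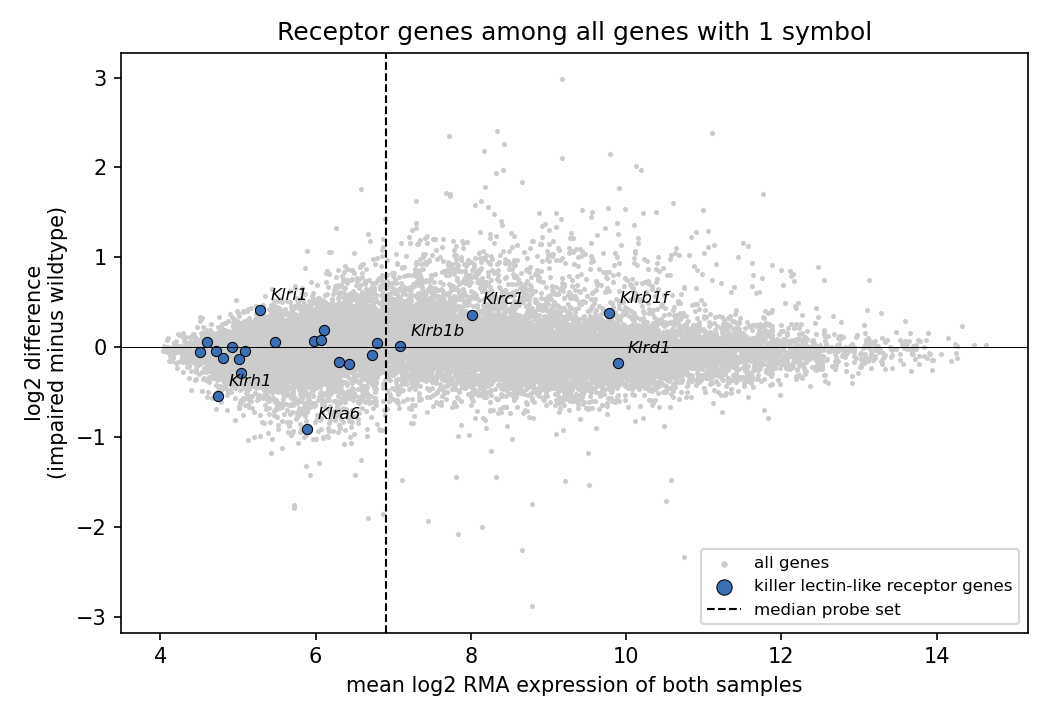
Log2 difference (impaired minus wildtype, y axis) against the mean log2 expression of both samples (x axis) for all 19937 genes (grey) and the 23 receptor genes (blue); the dashed line is the median probe set. Most receptor genes sit left of the line near 0, and Klra6 lies lowest among them at -0.91.

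The CD94 and NKG2 genes held both bright and dim members. Klrd1 encodes CD94, the chain that carries NKG2 proteins to the surface. It stood at 9.98 on the wildtype array and 9.80 on the impaired array, a difference of -0.18 (1.13-fold dimmer). Klrc1 encodes NKG2A, the inhibitory partner that reads Qa-1. Its values were 7.84 and 8.20, a difference of 0.36 (1.29-fold brighter in the impaired sample). The chain shared by all NKG2 pairs and its inhibitory partner thus differed in opposite directions, each by less than 1.5-fold.

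The activating partners were dim. Klrc2, which encodes NKG2C, was at 6.39 on the wildtype array and 6.22 on the impaired array (-0.16). Klrc3, which encodes NKG2E, was at 4.58 and 4.63 (0.05). Whether the probe sets of Klrc2 and Klrc3 share target sequence was not tested. Klrk1 encodes NKG2D, a receptor for stress-induced ligands that signals through DAP10. It was at 5.45 and 5.51, a difference of 0.06, under the median probe set in both samples.

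Among NKR-P1 receptors Klrb1f was the bright one. It encodes NKR-P1F, which binds Clec2i. Its values were 9.60 on the wildtype array and 9.97 on the impaired array, a difference of 0.38 (1.30-fold), the highest of the 4 members above the median probe set. Klrb1b encodes the inhibitory NKR-P1B, which reads Clec2d. It was at 7.08 and 7.10, a difference of 0.01.

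The remaining NKR-P1 genes lay under the median probe set and were nearly equal in both samples. Klrb1c encodes the NK1.1 antigen by which natural killer cells are sorted in some strains, and stood at 6.78 and 6.69 (-0.09). Klrb1, which encodes the inhibitory NKR-P1G, was at 6.77 and 6.81 (0.04). Klrb1a, which encodes NKR-P1A, was at 4.74 and 4.70 (-0.04). The pseudogene Klrb1-ps1 was at 5.95 and 6.02 (0.06). Of the 6 genes of the group 4 were brighter in the impaired sample, and 5 differed by less than 0.1.

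Klrg1, an inhibitory receptor for E-cadherin that marks strongly stimulated effector T cells, was dim at 6.02 on the wildtype array and 6.21 on the impaired array (0.19). Klrg2 stood at 6.04 and 6.11 (0.08). Both were thus slightly brighter in the impaired sample.

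Klre1 encodes a chain that pairs with the products of Klri1, an inhibitory receptor, and Klri2, an activating one. It was at 4.53 and 4.48 (-0.06). Klri1 was at 5.08 on the wildtype array and 5.49 on the impaired array (0.41), the highest difference of the whole family. Klri2 went the other way, at 5.18 and 4.90 (-0.28). Klrh1 stood at 5.02 and 4.47 (-0.55, 1.46-fold dimmer). Every one of these 4 probe sets was under the median probe set in both samples. Adding 32 to the linear signals, which shrinks every difference and dim ones most, gave 0.22 for Klri1 and -0.25 for Klrh1.

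The 6 Ly49 genes were all dim, and all 6 were dimmer in the impaired sample, with Klra8 at -0.001 and 2 signs turning under another centring; 45.3% of all genes under the median probe set in both samples were dimmer. Klra6, which encodes the inhibitory Ly49F, had the widest gap of the family. It was at 6.35 on the wildtype array and 5.44 on the impaired array, a difference of -0.91 (1.88-fold dimmer). Among genes under the median probe set in both samples, 2.17% were at least 1.5-fold dimmer. With 32 added to the linear signals, which shrinks it by construction, its difference was -0.59, just past 1.5-fold.

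The other Ly49 genes differed by far less. Klra3, the gene of the inhibitory Ly49C, was at 6.53 and 6.35 (-0.18). Klra2, the gene of Ly49B, which is known from myeloid cells, was at 5.08 and 4.95 (-0.13). Klra17, the gene of Ly49Q of plasmacytoid dendritic cells, was at 4.87 and 4.75 (-0.12). Klra5, the gene of Ly49E, was nearly level at 5.11 and 5.06 (-0.05). Klra8, the gene of Ly49H, which recognises cytomegalovirus-infected cells, was at 4.92 in both. After intensity-dependent centring Klra5 and Klra8 lay at 0.0036 and 0.05, so 4 of the 6 remained below 0.

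A further 4 probe sets are annotated with several Klra genes each, 3 to 7 symbols, and were left out of the family by its rule. They cover 9 Klra symbols with no probe set of their own, among them Klra1, Klra4, Klra7 and Klra9. They also name the members Klra3, Klra5, Klra6 and Klra8. The only one that names Klra6, with 7 symbols, was at 5.56 on the wildtype array and 5.31 on the impaired array (-0.25). The probe set of Klra6 alone differed by -0.91. Their wildtype values ranged from 5.06 to 6.29 and their impaired values from 4.97 to 5.79, so all were under the median probe set. All 4 were dimmer in the impaired sample, by -0.09 to -0.49, with a median of -0.36. Several name the same genes and can share target sequence, so they are not separate observations of Ly49 transcription.

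Ordered along the RefSeq reference, 8 of the 13 dimmer genes lay next to each other at one end. These last 8 measured members, from Klri2 and Klrh1 through the Ly49 genes to Klra2, were dimmer in the impaired sample as deposited, Klra8 by -0.001; Klra5 and Klra8 turned above 0 after intensity-dependent centring. All 8 lay under the median probe set in both samples, where 45.3% of all such genes were dimmer. Among them are the 6 related Ly49 genes. Whether the probe sets of these share target sequence was not tested, so the 8 signs may not be separate observations. Klri1, the neighbour on the other side of Klri2, had the highest difference. Of the other 15 members 10 were brighter and 5 (Klrb1a, Klrb1c, Klre1, Klrd1 and Klrc2) dimmer. Genes without a probe set of their own lie between some of these neighbours.

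**Figure D3:**
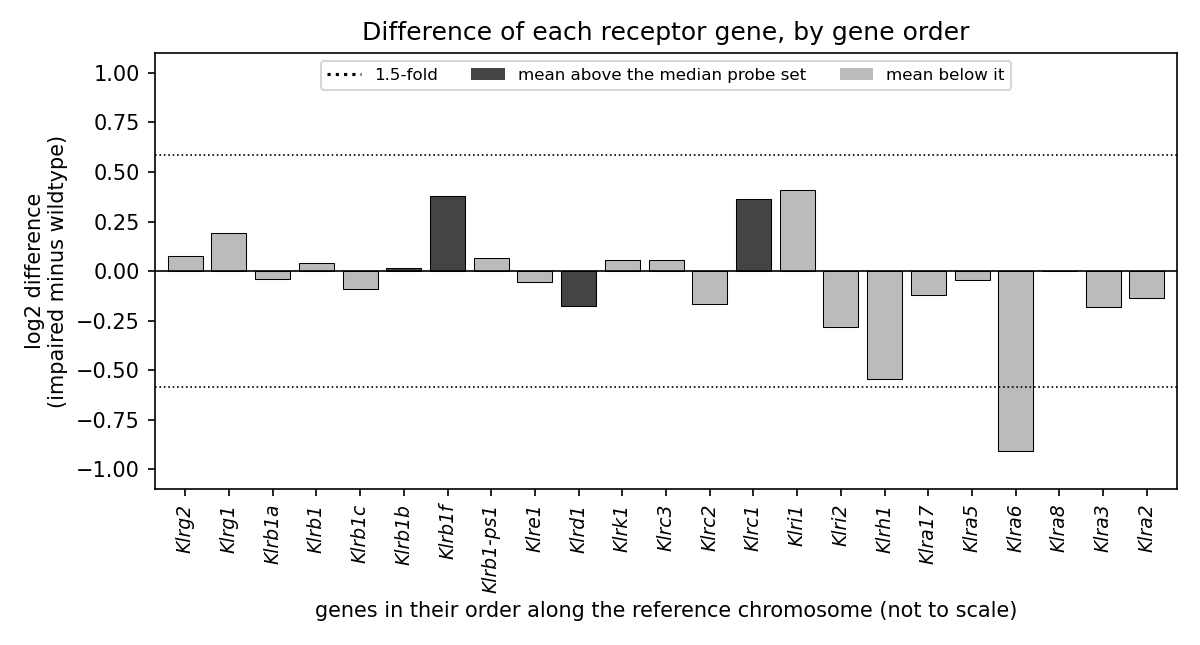
Log2 difference (impaired minus wildtype, y axis) of the 23 receptor genes in their order along the reference chromosome (x axis, not to scale); dark bars have a mean above the median probe set (6.91), light bars below it, and dotted lines mark 1.5-fold. The bars from Klri2 to Klra2 point down, and that of Klra6 alone passes a dotted line.

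Split by signalling type, both sides of the family had medians near 0. Of 10 inhibitory receptor genes 5 were brighter and 5 dimmer, and the median difference was -0.02. Of 8 activating ones 3 were brighter and 5 dimmer, also with a median of -0.02.

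The adaptors through which activating receptors signal were measured on bright probe sets, apart from Tyrobp. Tyrobp encodes DAP12, the adaptor of Ly49H and NKG2C. It was at 6.99 on the wildtype array and 8.01 on the impaired array, a difference of 1.03 (2.04-fold brighter). Hcst, which encodes the NKG2D adaptor DAP10, was at 9.35 and 8.98 (-0.37). Fcer1g, the Fc receptor gamma chain, was at 9.26 and 9.32 (0.06). Of 18 genes of adaptors, kinases and phosphatases at or above the median probe set in the brighter sample, 10 were brighter and 8 dimmer, with a median of 0.00. Tyrobp alone was at least 1.5-fold brighter, where 5.89% of all such genes were. Sh2d1a, an adaptor of SLAM receptors, differed by -0.54 and Grb2 by -0.23. Tyrobp is also made by myeloid cells, and Lyz2, a myeloid lysozyme, was brighter by 1.78 in the same sample. Of 12 macrophage and monocyte markers, Tyrobp among them, 10 were brighter there, as were 10274 of all 19937 genes. Only 6 of the 12 were at or above the median probe set in the brighter sample, 4 brighter and 2 dimmer. The summed linear signal of all 12 was 5141 on the wildtype array and 5130 on the impaired array. Cybb, the brightest of them on both arrays and so the largest single part of that sum, went down from 11.04 to 10.49 (-0.55). Neutrophil markers, a further myeloid list, were brighter in the impaired sample for 11 of 12. Their summed signal was 2210 on the wildtype array and 6984 on the impaired array. The part of macrophages, monocytes or neutrophils in the Tyrobp value was not tested.

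Of the ligand genes and their relatives, Clec2e, Clec2h and Cdh1 differed by more than 1.5-fold, each brighter in the impaired sample. They were 3 of the 6 at or above the median probe set in the brighter sample. Of all genes at that level 5.89% were at least 1.5-fold brighter. Clec2d, the ligand of NKR-P1B, was at 12.08 and 12.12 (0.04). Clec2i, the ligand of NKR-P1F, was at 7.29 and 7.49 (0.21). Clec2h, which NKR-P1G binds, was at 10.01 on the wildtype array and 10.77 on the impaired array (0.76). Its relative Clec2e was at 6.63 and 7.95 (1.32), the only one past 2-fold, where 1.46% of genes at or above the median probe set were. Cdh1, the E-cadherin that KLRG1 binds, was at 10.42 and 11.08 (0.66).

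Those 3 wider differences were of genes that intestinal epithelium is known to express. The impaired sample was also brighter for 15 of 15 enterocyte markers, Cdh1 itself among them, by a median of 0.99. Of all 11124 genes at or above the median probe set in the brighter sample, 5582 were brighter. The markers had a summed linear signal of 21005 on the wildtype array and 37838 on the impaired array. Their part in the ligand values was not tested. Ligands of NKG2D were dim, with Raet1d at 5.17 and 4.999 and H60b at 5.33 and 5.19. Over the 6 ligand genes at or above the median probe set in the brighter sample 5 were brighter and B2m alone dimmer (-0.15), with a median of 0.43. Of all such genes 49.5% were dimmer. Clec2e entered this set through the impaired sample only (6.63 and 7.95), so the filter itself favours its brighter value. Over all 10 ligand genes with a value 5 were brighter and 5 dimmer, with a median of -0.02. H2-T23 and the classical MHC class I heavy chain genes were not analysed here.

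**Figure D4:**
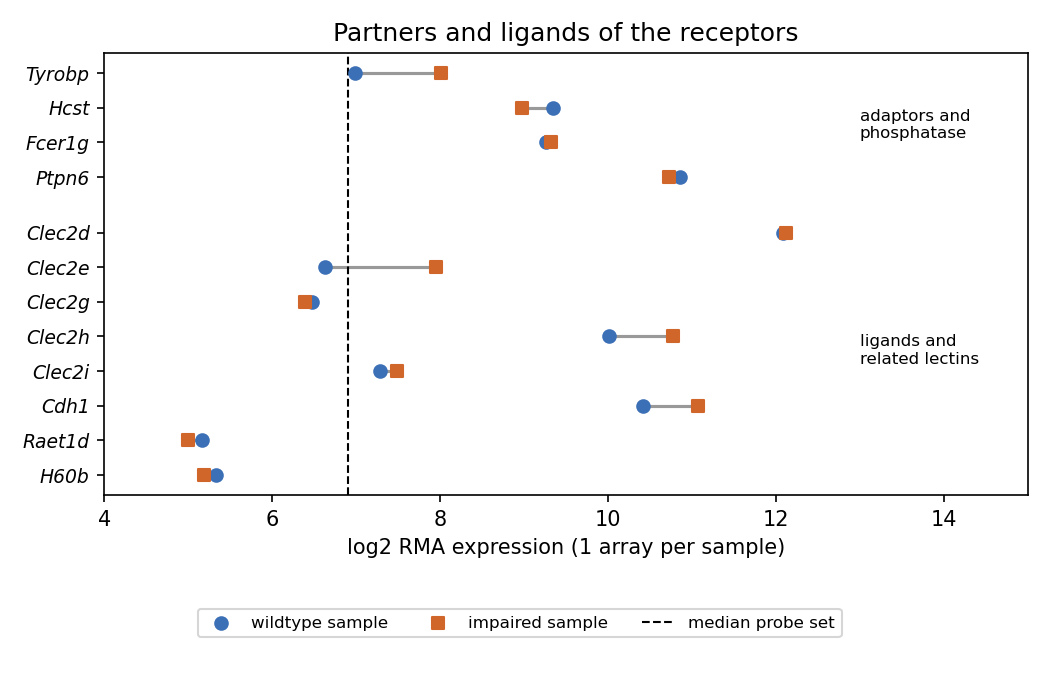
Log2 RMA expression (x axis) of adaptor and phosphatase genes and of ligand and related lectin genes (y axis) in the wildtype (circles) and impaired (squares) samples, 1 array each; the dashed line is the median probe set. The longest connecting bars are those of Clec2e, Tyrobp, Clec2h and Cdh1, each brighter in the impaired sample.

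The other C-type lectin-like genes of the natural killer gene complex were mostly dim, 10 of 15 being under the median probe set in both samples. Of all 19937 genes 8813 were. Cd69, an early activation marker of lymphocytes encoded in the same block, was at 12.55 and 12.35 (-0.21). It was the only dimmer one of the 5 that reached the median probe set in their brighter sample. The other 4 were the Clec2 genes given above: Clec2e (1.32), Clec2h (0.76), Clec2i (0.21) and Clec2d (0.04). Without that filter 11 of the 15 had the higher value on the impaired array and 3 the lower, where 10274 of all 19937 genes were brighter. Receptors of natural killer cells outside the lectin family were more often dimmer than brighter: 7 of 10 at or above the median probe set, where 49.5% of all such genes were dimmer, with a median of -0.13. Cd244a and Cd160, both at -0.39, were the lowest, Slamf6 was highest at 0.33, and Lilrb4a differed by -0.24.

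Transcription factors of cytotoxic lymphocytes differed little. Tbx21, which encodes T-bet, was at 11.20 and 11.30 (0.10). Eomes, its relative in natural killer and memory cells, was at 6.70 and 6.96 (0.26). Of 16 factors 9 were brighter and 7 dimmer, with a median of 0.04, led by Bach2 (0.29), Eomes, Zeb2 (-0.24) and Ikzf2 (-0.21). Among cytotoxic granule genes 10 of 12 at or above the median probe set were dimmer, against 49.5% of all such genes, with a median of -0.15; Prf1, the gene of perforin, was at 10.37 and 10.09. Cst7 (-0.40), Serpinb9 (-0.36) and Fasl (-0.31) were the lowest.

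Markers of cells that carry these receptors were checked beside them. Ncr1, which defines natural killer cells and some innate lymphoid cells, lay under the median probe set in both samples, at 5.35 and 5.21. Of 10 natural killer markers 3 were brighter and 7 dimmer in the impaired sample, where 47.6% of all genes were dimmer. At or above the median probe set 6 of 8 were dimmer, against 49.5% of all such genes. Markers on bright probe sets, such as Nkg7, Gzma and Prf1, are also expressed by activated T cells. The summed linear signal of all 10 was 43896 on the wildtype array and 38703 on the impaired array. Cd8a was at 12.12 and 11.42 (-0.70), and Cd8b1 at 9.80 and 9.72 (-0.09). Both CD8 genes were thus bright in samples labelled as TR1 cells. The 6 CD8 T cell markers had a summed signal of 22945 on the wildtype array and 20356 on the impaired array. That sum also holds Gzmk, the brightest of the 6 at 13.183 and 13.065, and Itgae, Runx3 and Eomes. Of 2 gamma-delta T cell genes with a value, Trgv1 differed by -0.40 and Sox13 by 0.24, and Trdc was not analysed here. The part of CD8, gamma-delta or natural killer cells in the receptor values was not tested, and in bulk samples fewer cells of a type and less RNA per cell cannot be told apart.

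Defining genes of the labelled cell type were bright, with Cd4 at 13.14 and 13.18, Cd3e at 13.58 and 13.57, Il10 at 12.94 and 12.92, and Lag3 at 11.41 and 11.36. All 14 TR1 markers were at or above the median probe set in the brighter sample, as were 11124 of all 19937 genes. Eomes reached it in the impaired sample only (6.70 and 6.96). Il10ra was at 9.92 on the wildtype array and 12.30 on the impaired array (2.38); whether its probe set detects the transgene was not tested. The impaired sample was brighter for 11 of 12 neutrophil markers, and for 10274 of all 19937 genes. The median over the neutrophil list was 1.68, and its summed signal was 2210 on the wildtype array and 6984 on the impaired array. Lcn2, the brightest of the 12 at 9.79 and 11.40, was the largest single part of both sums. Of the 12 markers 3 lay under the median probe set in both samples.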

How the data were processed

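The deposited table holds log2 values of 34760 probe sets on 2 arrays, made by the authors with affy and RMA per the submitters' processing notes; tool versions are not stated there. RMA corrects background, equalises the arrays and summarises probes. The log2 scale without centring was read from the values (medians 6.89 and 6.92).

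GEO's platform annotation, which can be old, gave 1 symbol to 21640 probe sets, several to 1321 and none to 11799. A gene with several probe sets took the probe set whose mean over the arrays was highest. All 23 members matched RefSeq (GRCm38.p6) by Entrez identifier, with 0 symbols changed; positions there were used for gene order and promoters only.

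With 1 array per group, no test, SE or p-value is given. A size of 1.5-fold was used for counting (0.58 on the log2 scale), beside the same over all genes. A gene was at or above the median probe set (the floor) when its brighter sample reached 6.91. Every member was given both values; members at or above the floor or past 1.5-fold are given in full. From other lists the text names up to 4 genes with the largest absolute difference above the floor, and fixed key genes. B2m, Clec2g, Ptpn6, Nkg7, Gzma, Raet1d and H60b were named outside this rule, after their values were seen. Members and lists were chosen with earlier results of these data known. Promoter windows were compared by ungapped sliding with at least 200 overlapping bases, and the position of highest identity was kept.

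Alternatives were loess centring (span 0.3), an offset of 32, other probe set choices, other floors and a 2-fold rule. Python 3.11.15, numpy 2.4.6, pandas 2.3.3, statsmodels 0.14.6 and matplotlib 3.10.9 were used.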

Additional observations from a re-analysis of the deposited data

How the results depend on the processing

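The family's median difference of -0.04 was 0.19 when only the 4 members at or above the median probe set were kept, and 0.04 without the Ly49 genes. It lay between -0.06 and -0.01 after loess centring, with the offset, without the pseudogene, or with the Klra probe sets of several genes added; the last 2 choices were made after the data were seen. The 1 member dimmer by 1.5-fold, Klra6, did not pass a 2-fold rule, which left 0. The 4 members above the median probe set became 2 (Klrd1 and Klrb1f) when the line was set to the 75th percentile, 8.86, and 3 at the median of probe sets with 1 symbol, 7.16. Loess centring moved members by up to 0.0647 and turned the sign of 5 whose differences were within 0.05 of 0 (Klra5, Klra8, Klrb1, Klrb1a and Klrb1b). Choosing another probe set per gene changed nothing, since each member had 1. No paired analysis was possible because the labels give 1 sample per group and no replicate numbers. The signal limits these results: 19 of 23 members lay under the median probe set, no detection call was at hand, and scanner files were not used here, so the authors' background correction and normalization could not be varied.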
